A study of Mus musculus with 15 samples.

Results

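The 7 genes described here are long noncoding RNAs known from brain, grouped for their abundance: Neat1, Malat1, Meg3, Rian, Mirg, Miat and Snhg11. They were found by matching the Ensembl identifiers of the count table, without their version, to gene symbols, and all 7 had a row among 54232 genes. All 7 also passed the filter on low counts, which left 18278 genes for testing. RNA was sequenced from the striatum, the forebrain region most affected in Huntington's disease, of mice aged 6 months. There were 4 KI-96 mice, 4 E1 mice and 7 WT mice, with 1 library per mouse. The labels name the genotypes KI-96 and E1 but state no allele, promoter or strain for them. The study's title speaks of knock-in mice of Huntington's disease and of RAN toxicity, that of proteins made from expanded repeats by repeat-associated non-AUG translation. The labels name no treatment and no allele shared by the groups.

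Long noncoding RNAs are transcripts that act, where a role is known, as RNA. Neat1 is the scaffold of paraspeckles, nuclear bodies that hold RNA-binding proteins, and it has a short and a long isoform that a count per gene adds together. Malat1 is a nuclear RNA of splicing speckles whose gene lies beside Neat1. Meg3, Rian and Mirg are expressed from the maternal chromosome of the imprinted Dlk1-Dio3 domain, where they host microRNAs and small nucleolar RNAs, while Dlk1, Rtl1 and Dio3 of the same domain are expressed from the paternal one. Miat, also called Gomafu, is a neuronal nuclear RNA that carries copies of a splicing branch point motif. Snhg11 hosts small nucleolar RNAs.

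In build GRCm38, Meg3 occupies chr12:109541001-109571726, Rian chr12:109603940-109661716 and Mirg chr12:109729764-109749460, all on the plus strand and in that order within 208.5 kb. The gap from Meg3 to Rian was 32.2 kb and that from Rian to Mirg 68.0 kb. Malat1 lies at chr19:5795690-5802672 and Neat1 at chr19:5824708-5845478, both on the minus strand and 22.0 kb apart. Miat lies at chr5:112213228-112229395 on the minus strand. Snhg11 lies at chr2:158375638-158386145 on the plus strand. Malat1 and Neat1 are single-exon genes in the GENCODE M21 annotation, Rian has 19 merged exons and Mirg 14. That annotation types Snhg11 as protein-coding and the other 6 as noncoding.

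The promoter of Meg3, the member with the highest count, is shown from RefSeq (build GRCm38.p6, chr12:109540746-109541045, plus strand), from 250 bases before the start to 50 after it. Capitals mark matches on either strand to the cyclic AMP response element TGACGTCA, its half-site TGACG and the TATA box TATAAA.
Meg3 promoter: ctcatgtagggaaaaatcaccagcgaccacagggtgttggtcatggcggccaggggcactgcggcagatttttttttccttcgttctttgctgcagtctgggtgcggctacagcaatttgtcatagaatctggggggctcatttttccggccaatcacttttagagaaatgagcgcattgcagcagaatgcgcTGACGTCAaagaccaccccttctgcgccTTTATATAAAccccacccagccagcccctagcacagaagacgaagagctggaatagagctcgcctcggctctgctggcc
The full TGACGTCA match began at position -57 from the start base, contained the 2 half-site matches of this window, and 1.79% of 32851 mouse promoter windows of this length hold such a match. Overlapping TATAAA matches on the 2 strands ran from -29 to -20, and 13.6% of the windows hold that motif. The windows of Rian, Mirg, Miat, Snhg11 and a second Meg3 start held 0 matches to these motifs, and that of Malat1 held 3 half-sites, a motif found in 20.8% of windows. Neat1 had no promoter entry in the source used and was not searched.

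Rian, Mirg and Meg3 carry 19 microRNA genes of the RefSeq table on their own strand, with 35 mature sequences: 26 in Mirg, 6 in Rian and 3 in Meg3. Mature sequences are shown with the seed, bases 2 to 8, in capitals, to let the hosts be told apart by what they encode. The first 2 lie in Meg3, the third in Rian and the rest in Mirg.
miR-770-5p: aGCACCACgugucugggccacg
miR-770-3p: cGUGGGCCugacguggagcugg
miR-370-3p: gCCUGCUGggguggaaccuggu
miR-134-5p: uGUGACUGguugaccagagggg
miR-154-5p: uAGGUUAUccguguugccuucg
miR-377-3p: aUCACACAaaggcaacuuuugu
miR-410-3p: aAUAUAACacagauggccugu
miR-453: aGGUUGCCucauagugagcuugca
miR-496a-5p: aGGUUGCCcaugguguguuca
The 35 mature sequences had 34 distinct seeds: miR-453 and miR-496a-5p, both in Mirg, shared GGUUGCC. Gene counts do not separate a mature microRNA from its precursor. Reads assigned to the annotated small RNA genes inside Mirg amounted to 7.94% of the Mirg count, against 0.656% for the microRNAs in Rian, 0.756% for the small nucleolar RNAs in Rian and 0.242% for the small nucleolar RNAs in Snhg11.

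Miat carries the branch point motif TACTAAC, for which its longest GENCODE M21 transcript, Miat-205 on chromosome 5, was searched on the transcript strand. The stretch richest in it, bases 4936 to 5095 of 9163, is shown with the 3 copies in capitals.
Miat-205: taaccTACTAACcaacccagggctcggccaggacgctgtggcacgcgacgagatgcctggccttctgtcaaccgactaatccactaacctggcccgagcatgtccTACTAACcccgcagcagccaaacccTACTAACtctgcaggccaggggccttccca
The whole transcript held 6 copies, or 0.65 per kb, against a mean of 0.03 per kb over 9177 noncoding transcripts of at least 1 kb. At least 1 copy was present in 5.97% of those transcripts and at least 5 copies in 0.0218% (2 transcripts, highest count 6). Transcripts of Miat itself were not left out of that background. The longest transcript of Neat1 held 1 copy and those of Malat1, Meg3, Rian, Mirg and Snhg11 held 0.

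Total counts lay between 14678565 and 23373551 in KI-96 libraries, between 18199927 and 19533231 in E1 libraries and between 17281603 and 26388542 in WT libraries. The mean log2 CPM (counts relative to the scaled library size) of 20 spiny projection neuron markers lay between 7.91 and 8.51 in KI-96, between 8.17 and 8.68 in E1 and between 8.07 and 8.56 in WT, so the defining markers of the labelled tissue were present in every library. KI-96 replicate 3 stood apart from the other 14 libraries: mitochondrial genes took 3.62% of its counts, against 4.57% to 6.37% in the others, and long noncoding genes took 2.69%, against 1.67% to 2.09%. E1 replicates 2 and 3 and WT replicate 3 had mean log2 CPM values of cortical excitatory neuron markers of 6.16, 5.48 and 6.02, while the other 12 libraries lay between 2.55 and 3.80. Y-linked transcripts were present in 6 libraries, WT replicates 2 to 7, and near 0 in all KI-96, all E1 and WT replicate 1, so that sex and genotype cannot be told apart against WT. All 24 immediate early genes had positive log2 fold changes in E1 against WT (median 0.72) and negative ones in KI-96 against E1 (median -0.94), and their part in the members' levels was not tested. Interferon response genes were positive for 21 of 22 tested in E1 against WT (median 1.43) and for 0 of 22 in KI-96 against E1 (median -0.70). Their mean log2 CPM was 3.91 in E1 replicate 1 and 2.07, 1.31 and 1.73 in E1 replicates 2 to 4. It lay between 1.14 and 1.61 in WT and between 1.44 and 2.57 in KI-96, so these fold changes leaned on E1 replicate 1. In KI-96 against E1 the log2 fold changes of ependymal markers were negative (9 of 9 tested) and those of thalamus, pallidum and habenula markers positive (10 of 10). The groups overlapped in both lists. The thalamus list had a mean log2 CPM of 2.88, 2.57, 3.70 and 4.63 in KI-96 replicates 1 to 4 and 2.29 to 3.24 in E1. The ependymal list had 1.04 to 2.10 in KI-96 and 1.83 to 3.19 in E1. In E1 against WT those of myelin markers were negative (16 of 16, median -0.35), as were those of choroid plexus markers (9 of 9), and those of ependymal markers were positive (9 of 9). The myelin mean log2 CPM was 7.29, 6.87, 6.64 and 8.00 in E1 replicates 1 to 4 and 7.31 to 7.89 in WT. E1 replicates 2 and 3, with high cortical markers, were thus lowest and E1 replicate 4 was the highest library of all. For choroid plexus E1 (0.20 to 1.75) and WT (1.07 to 3.06) overlapped, as did E1 (1.83 to 3.19) and WT (1.36 to 2.89) for ependymal markers. Of the interferon, ependymal, thalamus, myelin and choroid plexus lists 0 genes passed the threshold used below, and their part in the members' levels was not tested. In whole tissue, fewer cells of a type and less RNA per cell cannot be told apart.

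The members spanned a wide range of abundance. Per length, the mean over 15 libraries was 362 ± 94.3 RPKM (CPM per kilobase of exon, SD, n = 15) for Malat1, 212 ± 30.9 for Meg3, 200 ± 34.8 for Snhg11, 34.3 ± 4.30 for Rian, 10.7 ± 5.09 for Miat, 7.95 ± 3.12 for Neat1 and 4.18 ± 0.771 for Mirg. In this order, Meg3 and Snhg11 lay within each other's spread, as did Miat and Neat1. By total CPM, Meg3, Malat1 and Snhg11 were the first 3 of 2813 genes tested that are of long noncoding type or members. The 7 members together held 41.7% of the counts of all genes of long noncoding type or members, tested or not. Per length, among all 18278 genes tested Malat1 ranked 52, Meg3 107, Snhg11 112, Rian 1289, Miat 4428, Neat1 5672 and Mirg 8494. Among those 2813 genes the ranks per length were 2, 4, 5, 10, 51, 78 and 196 in the same order. By CPM Mirg ranked 6457 among all genes tested. Among all genes the name abundant was thus not borne out for Mirg, and less so for Miat and Neat1 than for the others. These RPKM values use exon lengths of GENCODE M21. The count table holds an older version of the Malat1 and Neat1 identifiers than that annotation, so their lengths are less certain.

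**Figure D1:**
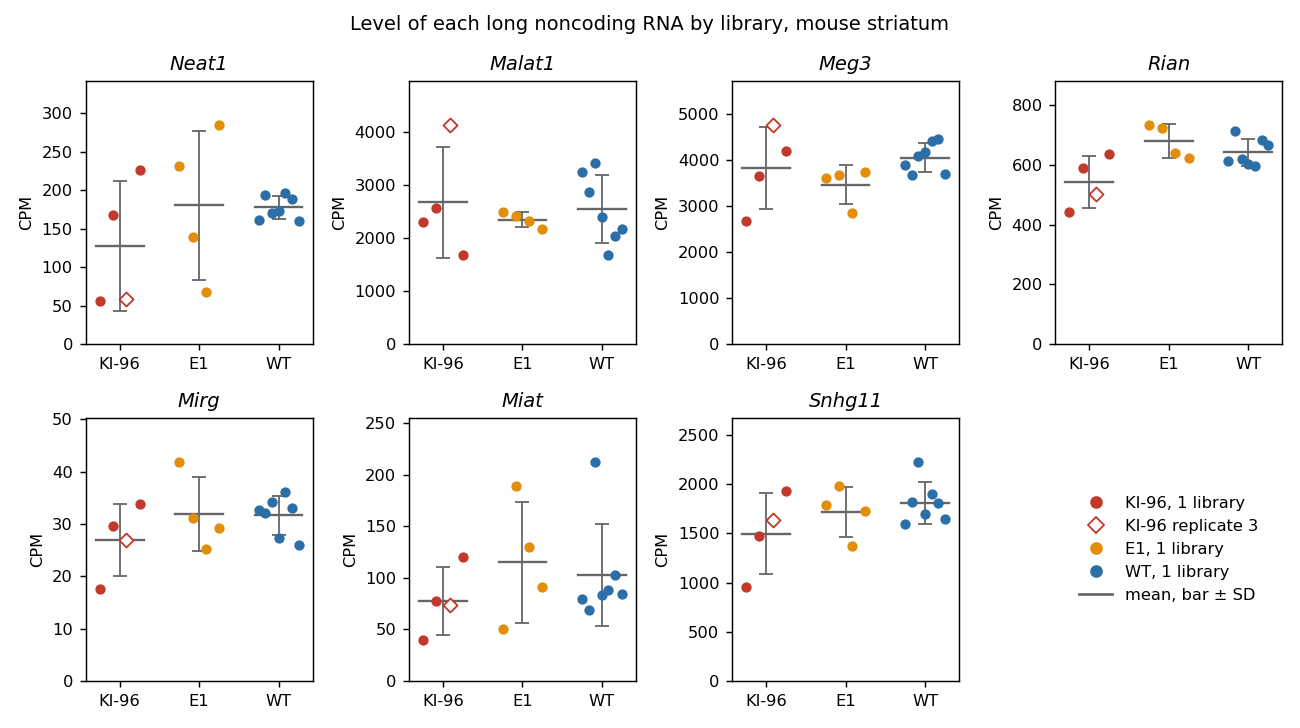
Level of each long noncoding RNA (vertical axis, CPM, from 0) in KI-96, E1 and WT libraries, 1 point per library, with the group mean and SD. KI-96 replicate 3 is the open diamond, the highest Malat1 value (4140 CPM) and among the lowest Neat1 values (58.4 CPM).

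Genes were tested with edgeR's quasi-likelihood test in all 15 libraries, with Benjamini-Hochberg adjustment over 18278 genes and a threshold of 0.05. In KI-96 against WT, 0 of 7 members passed, as did 0% of all genes. In KI-96 against E1 the result was the same, 0 of 7 members and 0% of all genes. In E1 against WT, 0 of 7 members passed, where 0.00547% of all genes did (1 gene, Dusp5, a phosphatase induced by neuronal activity). At an unadjusted p under 0.05 the edgeR test gave 1 of 7 members in KI-96 against WT, where 10.5% of all genes did, 1 of 7 in KI-96 against E1, where 14.3% did, and 0 of 7 in E1 against WT, where 8.75% did. The member was Rian, lower in KI-96 both times, as were 4.68% of all genes against WT and 6.42% against E1 at that p. Without KI-96 replicate 3, 0 of 7 members passed the adjusted threshold in KI-96 against WT, where 0.0108% of all genes did, or against E1, where 0.00539% did. At the unadjusted p the members then numbered 0 of 7 against WT (10.9% of all genes) and 1 of 7 against E1 (10.0%). DESeq2 called 72, 206 and 58 genes in these 3 comparisons (0.394%, 1.13% and 0.317% of genes tested) and limma-voom 1, 0 and 2 (0.00547%, 0% and 0.0109%), with 0 members in any. The groups overlapped for 7 of 7 members in all 3 comparisons. Over all genes, KI-96 libraries lay wholly above those of WT for 0.635% and wholly below for 0.651%, KI-96 libraries wholly above those of E1 for 2.29% and below for 2.50%, and E1 libraries wholly above those of WT for 0.892% and below for 0.799%.

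Most fold changes of the members were negative in KI-96, though none passed. In KI-96 against WT, 6 of 7 log2 fold changes were negative, with a median of -0.24 and a range from -0.48 for Neat1 to 0.07 for Malat1, while the median over all genes was -0.01. In KI-96 against E1, 5 of 7 were negative, with a median of -0.24, against -0.00 over all genes. KI-96 replicate 1 was the lowest of all 15 libraries for 6 of 7 members, Malat1 being the other, and it also had the lowest total count and the highest mitochondrial share (6.37%). With that library left out, 5 of 7 were negative in both comparisons and the medians were -0.11 against WT and -0.08 against E1. With KI-96 replicate 3 left out, 7 of 7 were negative against WT, with a median of -0.22, and 6 of 7 against E1, with a median of -0.24. A covariate for Y-linked reads, chosen after seeing the data, gave 7 of 7 negative in KI-96 against WT, with a median of -0.17, and it rests on WT replicate 1 as the 1 WT library without such reads. In E1 against WT, 3 of 7 were negative and the median was 0.01. The KI-96 comparisons share their KI-96 libraries, and those against WT share the WT libraries. Of the 95% intervals, 5 of 7 in KI-96 against WT, 5 of 7 in KI-96 against E1 and 7 of 7 in E1 against WT lay within 1 log2 unit of 0. Neat1 and Miat were the 2 with wider ones in the comparisons with KI-96, and for both a fall by 1 log2 unit lay inside the interval.

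**Figure D2:**
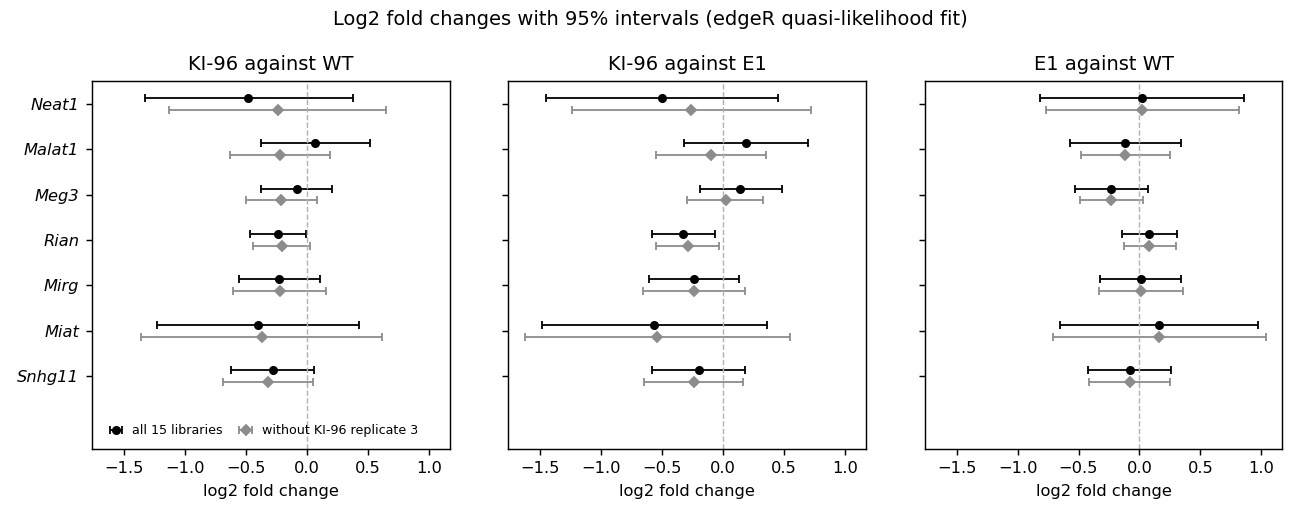
Log2 fold change of each long noncoding RNA (horizontal axis) with its 95% interval in KI-96 against WT, KI-96 against E1 and E1 against WT, from the edgeR fit to all 15 libraries (black) and to 14 libraries without KI-96 replicate 3 (grey). The Rian interval lies below 0 in KI-96 against E1 in both fits, from -0.58 to -0.07 in all libraries, and its adjusted p does not pass.

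Meg3, the first of the maternally expressed RNAs of the domain, was the most counted member. It had 2675, 3659, 4770 and 4201 CPM in KI-96 replicates 1 to 4, 3611, 3673, 2843 and 3747 CPM in E1 replicates 1 to 4, and a lowest value of 3688, a median of 4088 and a highest value of 4453 CPM in WT. KI-96 spanned the whole range, and E1 replicates 1, 2 and 3 lay below all WT libraries. The E1 mean was 3468 ± 420 CPM (SD over 4 libraries) and the WT mean 4058 ± 313 CPM (SD over 7), a log2 fold change of -0.23 (SE 0.14, edgeR adjusted p = 0.650). An exact permutation test of log2 CPM, two-sided, gave p = 0.0152 for this difference and 0.318 after adjustment over 21 tests (7 members in 3 comparisons). For KI-96 the log2 fold change of Meg3 was -0.08 against WT (SE 0.14, edgeR adjusted p = 0.859) and 0.14 against E1 (SE 0.16, adjusted p = 0.696). Without KI-96 replicate 3, which had the highest Meg3 level of all libraries, these were -0.21 and 0.02, and without KI-96 replicate 1, which had the lowest, they were 0.05 and 0.28. Leaving out KI-96 replicate 4 gave -0.14 against WT and 0.09 against E1, and leaving out E1 replicate 3 gave 0.06 in KI-96 against E1 and -0.15 in E1 against WT.

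Rian, the small nucleolar RNA host that follows Meg3 in the domain, varied least within groups on the log2 scale, with an SD of 0.15 on the log2 scale against a median of 0.274 over all genes. It had 441, 590, 502 and 637 CPM in KI-96, 733, 724, 638 and 624 CPM in E1, and a lowest value of 594, a median of 620 and a highest value of 711 CPM in WT. KI-96 replicates 1, 2 and 3 lay below all WT libraries and below all E1 libraries, and KI-96 replicate 4 lay among them. Its log2 fold change was -0.24 in KI-96 against WT (SE 0.11, edgeR adjusted p = 0.450). Against E1 it was -0.33 (SE 0.12, edgeR adjusted p = 0.268). The exact permutation p was 0.0333 for KI-96 against WT and 0.0571 for KI-96 against E1, or 0.350 and 0.395 adjusted over the 21 tests. In E1 against WT the log2 fold change of Rian was 0.08 (SE 0.11, edgeR adjusted p = 0.824). Without KI-96 replicate 3 the log2 fold changes in KI-96 were -0.20 against WT and -0.29 against E1. Without KI-96 replicate 1 they were -0.15 and -0.24, and without KI-96 replicate 4 the one against E1 had the smallest edgeR adjusted p of any member under any setting, 0.0872.

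Mirg, the microRNA host that follows Rian in the domain, had the lowest level per length of the members. It had 17.5, 29.6, 27.0 and 33.8 CPM in KI-96, 41.9, 31.2, 25.2 and 29.3 CPM in E1, and a lowest value of 25.9, a median of 32.7 and a highest value of 36.0 CPM in WT. KI-96 replicate 1 was the lowest library and E1 replicate 1 the highest, and the groups overlapped. The log2 fold change was -0.23 in KI-96 against WT (SE 0.16, edgeR adjusted p = 0.629), -0.24 in KI-96 against E1 (SE 0.18, adjusted p = 0.540) and 0.01 in E1 against WT (SE 0.16, adjusted p = 0.987). Without KI-96 replicate 1 the values for KI-96 were -0.07 against WT and -0.08 against E1, without KI-96 replicate 4 they were -0.36 and -0.37, and without KI-96 replicate 3 they were -0.22 and -0.24. Leaving out E1 replicate 1 also gave -0.08 in KI-96 against E1.

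Ratios within a library do not depend on scaling, and were taken as the log2 ratio of counts plus 0.5. The Rian count was 16.5%, 16.1%, 10.5% and 15.2% of the Meg3 count in KI-96 and 20.3%, 19.7%, 22.4% and 16.7% in E1. In WT it ran from 13.5% to 19.3%. All 4 KI-96 libraries thus lay below all 4 E1 libraries, and WT overlapped both. The closest were KI-96 replicate 1 at 16.5% and E1 replicate 4 at 16.7%. Of single genes, 2.50% lay wholly lower in KI-96 than in E1, and no such share was taken over ratios. The mean log2 ratio was -2.80 ± 0.30 (SD, n = 4) in KI-96 and -2.35 ± 0.18 (n = 4) in E1, a difference of -0.45 (exact permutation test, two-sided, p = 0.0286, the smallest that 70 splits can give, and 0.129 adjusted over 9 tests). Without KI-96 replicate 3 the difference was -0.30 and the KI-96 libraries still lay below the E1 libraries (exact permutation p = 0.0571, adjusted 0.257). E1 exceeded WT by 0.32 (exact permutation p = 0.0273, adjusted 0.129), and KI-96 differed from WT by -0.14 (exact permutation p = 0.391), or 0.01 without KI-96 replicate 3. For Mirg to Meg3 the differences were -0.15 in KI-96 against WT, -0.38 in KI-96 against E1 and 0.23 in E1 against WT, with adjusted exact permutation p-values of 0.359, 0.205 and 0.205. The first was -0.05 without KI-96 replicate 3 and the last 0.11 without E1 replicate 1.

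**Figure D3:**
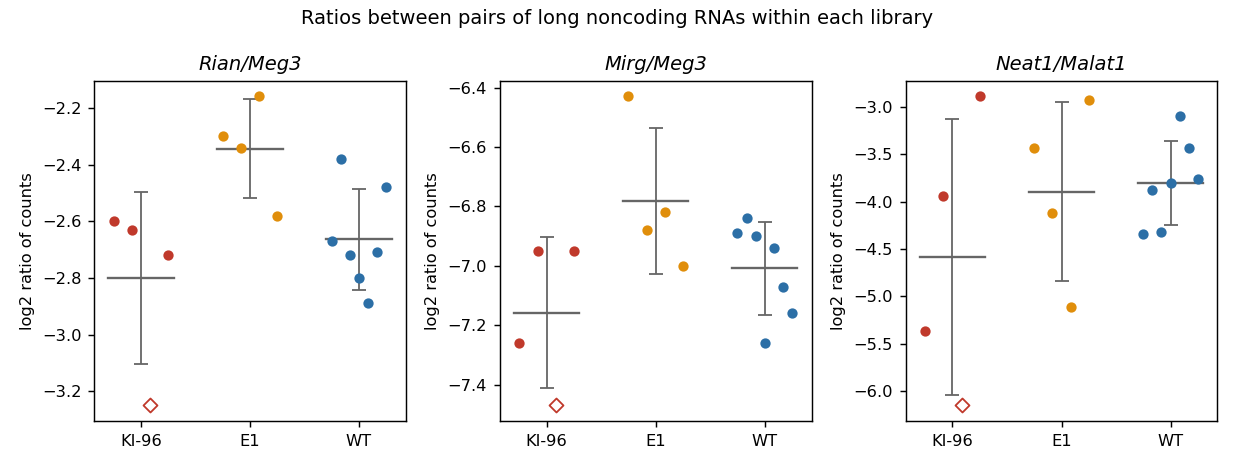
Log2 ratio of counts between pairs of long noncoding RNAs in each library (vertical axis) for KI-96, E1 and WT, with the group mean and SD; KI-96 replicate 3 is the open diamond. All KI-96 values of Rian to Meg3 (-3.25 to -2.60) lie below all E1 values (-2.58 to -2.16), and WT lies across both.

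The other genes of the Dlk1-Dio3 domain were all tested, and 0 of 4 passed the edgeR threshold in any comparison. Dlk1, a paternally expressed ligand-like protein of the Notch family, ranged widely within each group: 28.6, 9.08, 25.4 and 17.6 CPM in KI-96, 9.79, 4.49, 31.9 and 23.2 CPM in E1, and 5.06 to 32.6 CPM in WT. Rtl1, a retrotransposon-derived gene transcribed on the opposite strand between Meg3 and Rian, averaged 15.0 ± 4.05 CPM in KI-96 (SD, n = 4), 15.7 ± 2.20 CPM in E1 (SD, n = 4) and 14.9 ± 2.13 CPM in WT (SD, n = 7). Dio3, a deiodinase of thyroid hormone, averaged 1.32 ± 0.303 CPM in KI-96, 1.13 ± 1.10 in E1 and 1.05 ± 0.476 in WT. Dio3os, its antisense RNA, averaged 0.329 ± 0.123 CPM in KI-96, 0.706 ± 0.0516 in E1 and 0.674 ± 0.288 in WT. The Dio3os log2 fold change was -1.03 in KI-96 against WT (SE 0.38, edgeR adjusted p = 0.372) and, against E1, -1.07 (SE 0.42, edgeR adjusted p = 0.277), from 3 to 33 reads per library. No source used here says whether counting used strand, so reads of Rtl1 and of Dio3 cannot be told apart from those of antisense partners.

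Neat1, the paraspeckle scaffold, varied widely between libraries. It had 56.0, 168, 58.4 and 227 CPM in KI-96 and 231, 139, 67.5 and 285 CPM in E1. In WT the lowest value was 160, the median 173 and the highest 196 CPM. KI-96 replicates 1 and 3 and E1 replicate 3 lay between 56.0 and 67.5 CPM, and the other 12 libraries between 139 and 285 CPM. The SD within groups was 0.70 on the log2 scale, at the 91.5th percentile of all genes tested, whose median was 0.274. Miat had 0.64, and without KI-96 replicate 3 both had 0.67. WT alone had a narrow spread, with an SD of 8.63% of its mean, against 66.4% in KI-96 and 53.4% in E1. The log2 fold change was -0.48 in KI-96 against WT (SE 0.40, edgeR adjusted p = 0.693), -0.50 in KI-96 against E1 (SE 0.44, adjusted p = 0.612) and 0.02 in E1 against WT (SE 0.39, adjusted p = 0.992). Without KI-96 replicate 3 the values for KI-96 were -0.24 against WT and -0.26 against E1, without KI-96 replicate 1 they were -0.23 and -0.26, and without KI-96 replicate 4 they were -0.92 and -0.94. Leaving out E1 replicate 3 gave -0.78 in KI-96 against E1, leaving out E1 replicate 4 gave -0.19, and -1.02 was found without the 3 libraries of high cortical markers (edgeR adjusted p = 0.454). That last setting left only replicates 1 and 4 in E1, the highest Neat1 libraries of all (231 and 285 CPM).

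Malat1, the neighbour of Neat1, had 2310, 2578, 4140 and 1683 CPM in KI-96 and 2489, 2424, 2330 and 2170 CPM in E1. In WT it had 3251, 2873, 3415 and 2408 CPM in replicates 1 to 4 and 1683, 2046 and 2166 CPM in replicates 5 to 7. The 4 libraries with over 20000000 counts, KI-96 replicate 4 and WT replicates 5 to 7, held the 4 lowest Malat1 levels of all libraries. The labels give no batch. Total counts thus fall into 2 sets, and no correlation of Malat1 with them is given over all libraries. Within the 11 libraries of fewer counts r was 0.57 and rho 0.34 (permutation p = 0.386 and 0.487, adjusted 0.937 and 0.965), and r was -0.37 without KI-96 replicates 1 and 3. The log2 fold change was 0.07 in KI-96 against WT (SE 0.21, edgeR adjusted p = 0.928), 0.19 in KI-96 against E1 (SE 0.24, adjusted p = 0.738) and -0.12 in E1 against WT (SE 0.22, adjusted p = 0.884). Both KI-96 values changed sign without KI-96 replicate 3, to -0.22 and -0.10, and without KI-96 replicate 4 they were 0.24 and 0.35. With the Y-linked covariate the value was -0.28 in KI-96 against WT and -0.47 in E1 against WT. Over the 11 libraries of at most 20000000 counts, the log2 fold change was -0.35 in E1 against WT (edgeR adjusted p = 0.920) and 0.00 in KI-96 against WT (adjusted p = 0.996).

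The ratio of Neat1 to Malat1 varied widely between libraries. The Neat1 count was 2.43%, 6.52%, 1.41% and 13.5% of the Malat1 count in KI-96, 9.26%, 5.75%, 2.90% and 13.2% in E1, and 4.95% to 11.6% in WT. KI-96 replicate 3 joined the highest Malat1 level to a low Neat1 level and had the lowest ratio. The mean log2 ratio differed by -0.78 in KI-96 against WT, -0.69 in KI-96 against E1 and -0.09 in E1 against WT, with adjusted exact permutation p-values of 0.359, 0.514 and 0.833. Leaving out KI-96 replicate 3, the KI-96 differences were -0.26 and -0.17, and without KI-96 replicate 4 they were -1.35 and -1.25.

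The proteins that share nuclear bodies with these RNAs were described from 2 lists. Of 24 paraspeckle protein genes, 0 passed the edgeR threshold in any comparison, and the median log2 fold change was 0.04 in KI-96 against WT, -0.04 in KI-96 against E1 and 0.05 in E1 against WT (0.01 and -0.08 in the KI-96 comparisons without KI-96 replicate 3). Taf15, an RNA-binding protein, averaged 81.3 ± 2.94 CPM in the 4 E1 libraries and 64.8 ± 6.15 CPM in the 7 WT libraries (SD; log2 fold change 0.33, edgeR adjusted p = 0.450). Of 28 genes of nuclear speckles and splicing, 0 passed as well, with medians of -0.16 in KI-96 against WT (20 negative), -0.18 in KI-96 against E1 (22 negative) and 0.00 in E1 against WT (14 negative). Clk4, a kinase of splicing factors, averaged 71.4 ± 16.1 CPM in KI-96 and 93.8 ± 8.59 in WT (log2 fold change -0.39, edgeR adjusted p = 0.362), and Srsf7, a splicing factor, averaged 92.7 ± 17.1 CPM in KI-96 and 126 ± 15.1 in E1 (log2 fold change -0.44, edgeR adjusted p = 0.213).

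Miat, the RNA with the TACTAAC copies printed above, had 39.9, 77.4, 73.3 and 120 CPM in KI-96 and 50.9, 189, 130 and 91.1 CPM in E1. In WT the lowest value was 68.5, the median 84.8 and the highest 213 CPM. The 3 highest libraries, WT replicate 3 and E1 replicates 2 and 3, were the 3 with high cortical markers, and the other 12 lay between 39.9 and 120 CPM. Slc17a7, the vesicular glutamate transporter of cortical neurons, was at 914 and 597 CPM in those 2 E1 libraries and at 816 CPM in that WT library, against 5.97 to 91.0 CPM in the other 12. The log2 fold change of Miat was -0.40 in KI-96 against WT (SE 0.39, edgeR adjusted p = 0.733), -0.57 in KI-96 against E1 (SE 0.43, adjusted p = 0.554) and 0.16 in E1 against WT (SE 0.38, adjusted p = 0.916). Without the 3 libraries the values in KI-96 against E1 and in E1 against WT changed sign, to 0.13 and -0.26, and that in KI-96 against WT was -0.13. Only replicates 1 and 4 were then left in E1. Leaving out WT replicate 3 alone gave -0.12 in KI-96 against WT and 0.44 in E1 against WT, and leaving out E1 replicate 2 alone gave -0.22 in KI-96 against E1 and -0.18 in E1 against WT. The KI-96 values were -0.37 against WT and -0.54 against E1 without KI-96 replicate 3, -0.19 and -0.35 without KI-96 replicate 1, and -0.70 and -0.86 without KI-96 replicate 4. With the Y-linked covariate the values were -0.02 in KI-96 against WT and 0.54 in E1 against WT.

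Snhg11, a neuronal host of small nucleolar RNAs, had 950, 1473, 1634 and 1929 CPM in KI-96 and 1790, 1983, 1371 and 1723 CPM in E1. In WT the lowest value was 1595, the median 1807 and the highest 2230 CPM. KI-96 replicates 1 and 2 and E1 replicate 3 lay below all WT libraries. The log2 fold change was -0.28 in KI-96 against WT (SE 0.16, edgeR adjusted p = 0.560), -0.20 in KI-96 against E1 (SE 0.18, adjusted p = 0.620) and -0.08 in E1 against WT (SE 0.16, adjusted p = 0.900). Without KI-96 replicate 1 the values for KI-96 were -0.11 against WT and -0.03 against E1, without KI-96 replicate 3 they were -0.32 and -0.24, and with the Y-linked covariate that against WT was -0.09. In KI-96 against E1 the value was -0.35 without KI-96 replicate 4 and -0.12 without E1 replicate 2. Of 15 other host genes of small nucleolar RNAs that were tested, 0 passed, with medians of -0.18 in KI-96 against WT, -0.18 in KI-96 against E1 and 0.11 in E1 against WT. With KI-96 replicate 3 left out, the first 2 medians were 0.01 and -0.07.

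**Figure D4:**
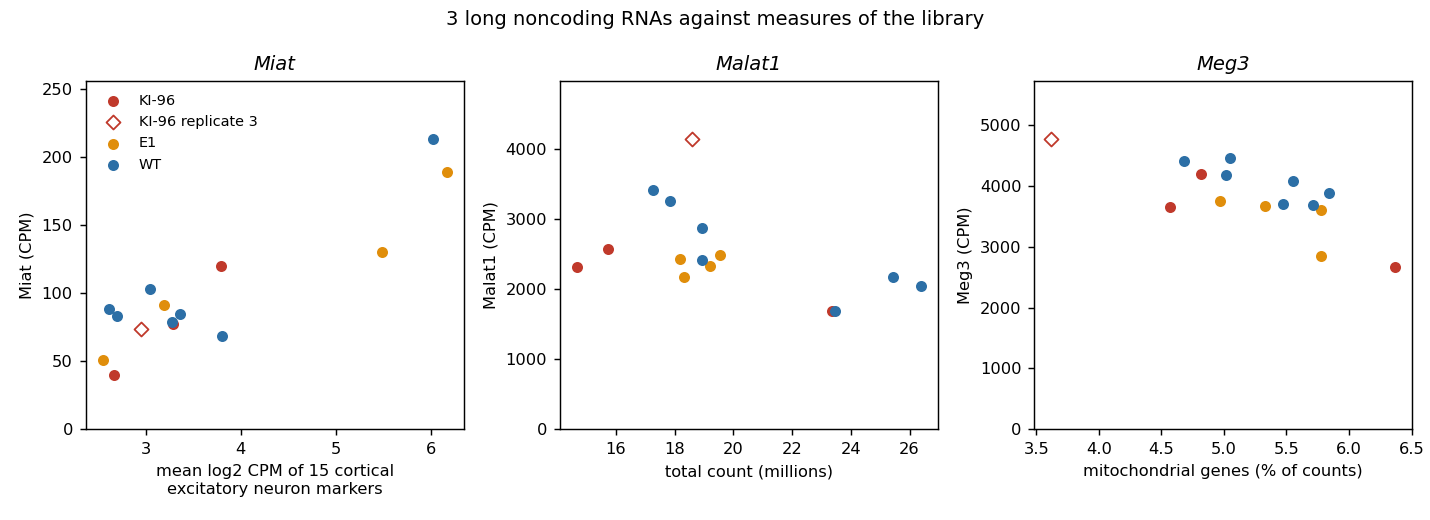
Level of Miat against the mean log2 CPM of 15 cortical markers, of Malat1 against the total count, and of Meg3 against the share of mitochondrial counts (vertical axes, CPM), 1 point per library in KI-96, E1 and WT. The 3 highest Miat libraries (130 to 213 CPM) are those with high cortical markers, and Meg3 is highest (4770 CPM) in KI-96 replicate 3, where the mitochondrial share is lowest (3.62%).

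Relations between members were taken across libraries as correlations of log2 CPM centred on each group's mean, with 100000 permutations within groups and adjustment over 21 pairs. Neat1 falls into 2 sets of libraries, so no pooled correlation is given for its 6 pairs. Of the other 15 pairs, 13 had a positive r over 15 libraries, 11 over 14 without KI-96 replicate 3 and 15 over the 11 of at most 20000000 counts. Meg3 and Snhg11 had the highest correlation (r = 0.81, rho = 0.70, permutation p = 0.0123 and 0.0113, adjusted 0.129 and 0.127), with r = 0.51 without KI-96 replicate 1 and E1 replicate 3. Mirg and Snhg11 had r = 0.80 and rho = 0.69 (permutation p = 0.00617 and 0.0121, adjusted 0.129 and 0.127), with r = 0.74 without KI-96 replicate 1 and E1 replicate 1. Rian and Mirg, neighbours in the domain, had r = 0.67 and rho = 0.51 (adjusted permutation p = 0.156 and 0.375), and Meg3 and Rian r = 0.35 and rho = 0.06 (adjusted 0.713 and 0.910). For Rian and Mirg r was 0.35 without KI-96 replicates 1 and 4. For Meg3 and Rian it was -0.24 without KI-96 replicate 1 and E1 replicate 3. Malat1 had r between -0.19 and 0.08 with the other members shown over 15 libraries, and between -0.38 and 0.02 over 14. Over the 11 libraries of at most 20000000 counts its r ran from 0.17 with Rian to 0.64 with Meg3. The r with Meg3 was then -0.11 without KI-96 replicates 1 and 3, so these values depended on the libraries used. At 0.05, 0 of the 21 passed the adjustment over 15, 14 or 11 libraries.

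**Figure D5:**
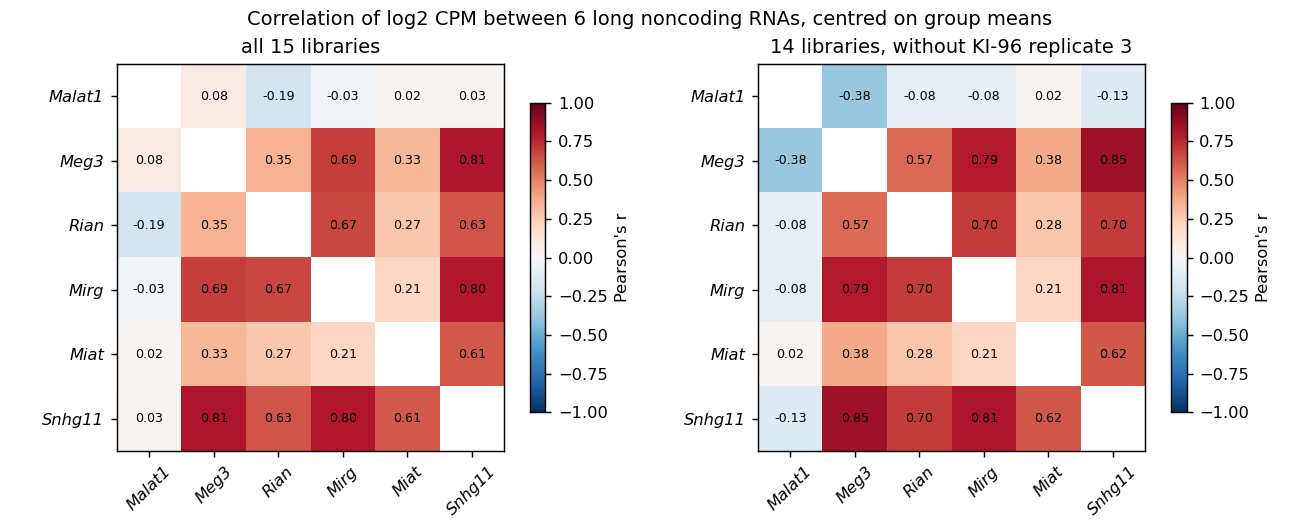
Pearson correlation of log2 CPM, centred on group means, between 6 long noncoding RNAs, over all 15 libraries (left) and 14 libraries without KI-96 replicate 3 (right); the colour scale runs from -1 to 1. Meg3, Mirg, Rian and Snhg11 have positive correlations with each other (0.35 to 0.81 over 15 libraries and 0.57 to 0.85 over 14). Without KI-96 replicate 1 and another library per pair, those over 15 libraries ran from -0.24 to 0.74. Malat1 lies between -0.19 and 0.08 with each of the other 5 over 15 libraries, and between -0.38 and 0.02 over 14.

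Meg3 levels ran against the share of counts in mitochondrial genes, a relation that passed the adjustment by rho in 15 libraries and by neither measure in 14. Over 15 libraries r was -0.87 and rho -0.79 (permutation p = 0.00242 and 0.00197, adjusted over 21 relations of members with library measures 0.0508 and 0.0414), and r was -0.60 without KI-96 replicates 1 and 3. Over 14 libraries without KI-96 replicate 3 it was -0.81 (rho -0.79, adjusted permutation p = 0.0647 and 0.0572), and over the 11 libraries of at most 20000000 counts -0.92 (rho -0.83, adjusted permutation p = 0.304 and 0.244). The 4 libraries with more counts are too few for a value.

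The genes whose pattern across 14 libraries was most like a member's are given as a description, from 15495 genes with a mean of at least 1 CPM. Neat1 is left out for the reason given above. For Meg3 they were Mbip (r = 0.95), Dennd6b and Dcdc2b (0.92 each), and for Rian 3110039M20Rik (0.92), Gtf2a2 and Srsf11 (0.91 each). For Mirg they were Fam193b (0.98), Crtc2 and Klhdc4 (0.96 each), and for Snhg11 Prpf40b, Pcyt2 and Commd4 (0.96 each). For Miat they were Trpm4, Cdh24 and Catsperz (0.95 each), and for Malat1 Ptgfrn (0.92), Fam168b and Vps18 (0.89 each). Over all 15 libraries the 3 values of Malat1 were 0.66, 0.62 and 0.62, those of Meg3 0.88, 0.59 and 0.72, those of Snhg11 0.87, 0.68 and 0.50 and those of Mirg 0.97, 0.86 and 0.85. The values of Rian and Miat lay between 0.90 and 0.95.

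Of 25 genes that neighbour the members on the chromosome, Dlk1, Rtl1 and Dio3 among them, 0 passed the edgeR threshold in any comparison, with medians of 0.06 in KI-96 against WT, 0.08 in KI-96 against E1 and 0.03 in E1 against WT. Of 31 other long noncoding RNAs tested, 0 passed, with medians of -0.15 in KI-96 against WT, -0.18 in KI-96 against E1 and 0.10 in E1 against WT. The smallest p among them belonged to C130071C03Rik, at 28.9 ± 5.97 CPM in the 4 KI-96 libraries and 46.1 ± 5.65 CPM in the 4 E1 libraries (SD; log2 fold change -0.67, edgeR adjusted p = 0.178). Of 35 other imprinted genes tested, 0 passed, with medians of 0.06 in KI-96 against WT, 0.25 in KI-96 against E1 and -0.09 in E1 against WT. The first 2 were 0.00 and 0.11 without KI-96 replicate 3. Peg3, a paternally expressed zinc finger gene, averaged 402 ± 27.0 CPM in the 4 E1 libraries and 500 ± 54.1 CPM in the 7 WT libraries (SD), with all E1 libraries below all WT libraries (log2 fold change -0.32, edgeR adjusted p = 0.530), where 0.799% of all genes were lower without overlap.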

How the data were processed

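The members and gene lists were chosen with earlier results of these data known. The authors deposited raw read counts, whole numbers with 1 column per mouse and unequal column totals. Settings, annotation release and strand use of the counting are not stated in the labels. Per the submitters' processing notes, STAR, HTSeq, build GRCm38 and DESeq2 1.24.0 were used, with no role named. Of 54232 identifiers, 54165 matched GENCODE M21 without version. No 2 libraries of a group matched within counting error (33 pairs, smallest chi-square per degree of freedom 8.80), and each has its own mouse number.

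Counts were filtered by group with edgeR 4.0.16 (minimum count 10), scaled by the trimmed mean of M-values and fitted with a robust quasi-likelihood model of group over all 15 libraries, with Benjamini-Hochberg adjustment. The script was tested on simulated data. Single levels and ratios had exact permutation tests, two-sided, of log2 CPM (prior count 2) or log2 ratios. The smallest possible p is 0.00303 for 4 against 7 libraries and 0.0286 for 4 against 4. Alternatives were other scalings and filters, DESeq2 1.42.0, limma-voom (limma 3.58.1), only the 2 groups compared, each library left out, covariates and a replicate block. Named were all members, the other genes of the domain, up to 3 genes per list by smallest p, chromosome neighbours and the 3 genes most like each member except Neat1; Slc17a7, Dusp5, Srsf5, Kcnq1ot1 and Snhg14 were chosen after their values were seen. Sequences are from RefSeq (GRCm38.p6) and GENCODE M21.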

Additional observations from a re-analysis of the deposited data

Results flagged for a closer look

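Of 30 sets of values looked at (each member and 3 ratios in each group), 2 held a library far from the rest of its group, and chance alone gives about 1 in 20. Meg3 in E1 replicate 3 was at 2843 CPM, while the other 3 E1 libraries lay between 3611 and 3747 CPM. That library also had one of the 3 lowest Neat1 levels (67.5 CPM) and the lowest Snhg11 level of E1 (1371 CPM). Miat in WT replicate 3 was at 213 CPM, while the other 6 WT libraries lay between 68.5 and 103 CPM. Its mean log2 CPM of cortical markers was 6.02, and the part of cortical tissue in the Miat level was not tested.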

How the results depend on the processing

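Under 27 alternative settings, 0 of 567 member values passed the threshold (smallest edgeR adjusted p 0.0872, Rian in KI-96 against E1 without KI-96 replicate 4). Leaving out 1 library at a time gave 0 to 257 genes past the threshold in E1 against WT (257 without E1 replicate 4, 12 without WT replicate 1), 0 to 11 in KI-96 against WT (11 without WT replicate 1) and 0 to 190 in KI-96 against E1 (190 without E1 replicate 4, 128 without KI-96 replicate 4). DESeq2 called 58, 72 and 206 genes in E1 against WT, KI-96 against WT and KI-96 against E1, and limma-voom called 2, 1 and 0. In E1 against WT the count was 0 with library totals alone, without a filter, with only the 2 groups compared, with the cortical or the Y-linked covariate, without the 3 libraries of high cortical markers and without the 4 of over 20000000 counts. Without a filter it was 1 in KI-96 against WT and 3 in KI-96 against E1. In KI-96 against E1 it was 1 with the Y-linked covariate and 2 without the 4 deeper libraries. The Y-linked covariate and the setting without the 4 deeper libraries were chosen after seeing the data.

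Directions turned for these member values, 0 of which had passed, the furthest from 0 being Miat in KI-96 against E1 (-0.57). In E1 against WT, Neat1 was -0.17 by limma-voom, Mirg was -0.00 by limma-voom and with library totals alone and -0.04 with the Y-linked covariate, Miat was -0.26 without the 3 cortical libraries and -0.25 with the cortical covariate, and Snhg11 was 0.01 without the 3 cortical libraries and 0.11 with the Y-linked covariate. Malat1 in KI-96 against WT was -0.28 with the Y-linked covariate, and its exact permutation p with library totals alone was 0.955. Miat in KI-96 against E1 was 0.13 without the 3 cortical libraries and 0.03 with the cortical covariate. Without the 3 cortical libraries only replicates 1 and 4 were left in E1. With 1 library left out, log2 fold changes in E1 against WT ran from -0.29 to 0.29 for Neat1, -0.15 to 0.11 for Mirg, -0.18 to 0.44 for Miat and -0.15 to 0.01 for Snhg11. In KI-96 against WT they ran from -0.22 to 0.24 for Malat1 and from -0.21 to 0.05 for Meg3, and in KI-96 against E1 from -0.10 to 0.35 for Malat1. The log2 ratio of Rian to Meg3 in KI-96 against WT ran from -0.21 to 0.01 and that of Neat1 to Malat1 in E1 against WT from -0.42 to 0.31. Without KI-96 replicate 3 the exact permutation p of Malat1 was 0.450 against WT and 0.600 against E1. The causes were not tested.

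Replicate numbers did not pair the libraries: correlations of same-numbered deviations ran from -0.10 to 0.19, the library most alike had the same number in 5 of 12 cases, and each library comes from a different mouse. With the replicate block over replicates 1 to 4, 0 genes passed in each comparison, as on the same libraries without it. Under the block Neat1 in E1 against WT was -0.14 and Malat1 in KI-96 against WT was -0.21 (-0.16 without the block).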

Other observations

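Neat1 was low in KI-96 replicates 1 and 3 and E1 replicate 3, and Srsf5, a splicing factor of the speckle list chosen after its values were seen, was low in the same libraries. Srsf5 was at 189 and 181 CPM in those KI-96 libraries and at 257 CPM in that E1 library, while the other 12 libraries lay between 312 and 429 CPM. Kcnq1ot1, a paternally expressed long noncoding RNA of another imprinted domain, was at 123 CPM in KI-96 replicate 3 and between 32.0 and 47.6 CPM in the other 14 libraries. Snhg14, the host of the Prader-Willi small nucleolar RNAs, was at 197 CPM in KI-96 replicate 3 and between 84.3 and 132 CPM elsewhere. Malat1 and Meg3 were both highest in that library too, while Rian (502 CPM) and Neat1 (58.4 CPM) were not.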
